A study of Mus musculus with 6 samples.

Results

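A set of 3495 genomic regions in the mouse uterus held an estrogen receptor alpha (ERα) peak after tamoxifen in the wild type and after fulvestrant in the ERα AF-2 mutant, and held no peak of wild-type fulvestrant or of mutant tamoxifen. They are called mixed-pair regions here. They were found by joining the peaks of all 6 deposited lists wherever peaks overlapped by at least 1 bp, which gave 65146 regions, and by keeping those with that combination of the 4 ligand lists. The mixed-pair regions were 5.36% of all regions. Vehicle peaks were not asked for and were allowed. The regions were chosen by the calls in the 4 ligand lists, that is, by which lists had a peak there. Their presence in WT Tam and AF-2 mutant ICI and their absence from the other ligand lists are therefore a description and were not tested.

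ERα is a hormone-activated transcription factor that binds DNA at estrogen response elements and through other factors already on chromatin. In its ligand-binding domain, the surface named activation function 2 (AF-2) takes up coactivators when an agonist is bound. Fulvestrant (ICI182780, ICI) is a steroidal antagonist that also leads to loss of the receptor. Tamoxifen (Tam) is a nonsteroidal triphenylethylene that acts as an antagonist in breast and has agonist activity in the uterus. In mice with a mutated AF-2, both compounds have been described as agonists in certain tissues.

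Uteri came from ovariectomized female mice of strain C57BL/6J aged 12 weeks, either AF-2 mutants (AF2ERKI, titled Af2KI) or their wild-type (WT) littermates. Animals received 2 mg/kg ICI, 2 mg/kg Tam or 50 µl of the solvent DMSO as vehicle (Veh) by intraperitoneal injection, and uteri were taken after 1 h. Chromatin was immunoprecipitated with an ERα antibody. Each of the 6 groups (AF-2 mutant ICI, AF-2 mutant Tam, AF-2 mutant Veh, WT ICI, WT Tam and WT Veh) was 1 library from the pooled uteri of 6 mice. A further code in every title, E1h, has no explanation in the labels, so an estrogen given in addition cannot be told from a treatment time. The whole uterus was used, so the cell types behind a peak cannot be told apart.

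No group had a replicate, so no comparison was tested. All intervals are exact (Clopper-Pearson, or order-statistic for medians) at 95% and cover counting error over regions alone. Variation between mice or between libraries is not in them. The lists held 45837 peaks for AF-2 mutant ICI, 36538 for AF-2 mutant Tam and 5027 for AF-2 mutant Veh, and 26482 for WT ICI, 37327 for WT Tam and 3712 for WT Veh. The lists that the mixed-pair regions hold were thus the longest of all, and the part of list length in the number of these regions was not tested. Each peak was given only as a position of 200 bp in build mm9, with no height, and read depth is unknown. Absence from a list says that no peak was called there.

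The mixed pair was the common one of the pairs that cross genotype and ligand. The opposite pair, WT ICI with AF-2 mutant Tam and without WT Tam and AF-2 mutant ICI, numbered 481 regions. Of all regions with both WT Tam and AF-2 mutant ICI, 12.5% (12.1 to 12.9) were mixed-pair regions, the others holding WT ICI, AF-2 mutant Tam or both. For the opposite pair, 2.72% (2.48 to 2.97) of the regions with both WT ICI and AF-2 mutant Tam lacked the other ligand lists. Where neither WT ICI nor AF-2 mutant Tam was called, 35.7% (34.7 to 36.6) of 9793 regions with WT Tam also held AF-2 mutant ICI. Seen from the mutant, 29.3% (28.5 to 30.1) of 11925 regions with AF-2 mutant ICI also held WT Tam. In the opposite pair, 11.9% (10.9 to 12.9) of 4050 regions with AF-2 mutant Tam also held WT ICI, and 10.2% (9.36 to 11.1) of 4709 regions with WT ICI also held AF-2 mutant Tam. The opposite pair joins the shorter ligand lists, of 36538 and 26482 peaks, and the mixed pair the longer, of 45837 and 37327. All these shares come from the calls that the rule used, and the part of list length in their contrast was not tested. The regions took up 7.62% of the AF-2 mutant ICI list and 9.36% of the WT Tam list.

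Within a mixed-pair region the peaks of the different genotypes and ligands lay almost on top of each other. Every one of the 3495 regions held exactly 1 WT Tam peak and 1 AF-2 mutant ICI peak. Peaks of 200 bp that overlap directly have midpoints less than 200 bp apart, so the joining itself limits this distance. The midpoints of these peaks were a median of 15.0 bp apart (14 to 15), with quartiles of 7 and 26 bp. In 63.9% of the regions (62.2 to 65.5) the midpoints lay within 20 bp of each other, and in 93.7% (92.8 to 94.5) within 50 bp. They fell on the same base in 63 regions. Only 32 regions had midpoints over 100 bp apart, and in 1 region, with an offset of 209 bp, the peaks were joined through a vehicle peak. The resulting regions were 200 to 409 bp wide, with a median of 215.0 bp.

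The same pair of lists can be compared at sites that other ligand lists also held. The median offset between WT Tam and AF-2 mutant ICI was 13.0 bp (12.0 to 13.0) in the 7644 regions missing only from WT ICI, with 69.6% (68.6 to 70.6) within 20 bp. In regions of all 4 ligand lists it was 11 bp, with 74.7% (74.0 to 75.4) of 15137 regions within 20 bp. It was 16 bp (15 to 17) in the 1600 regions missing only from AF-2 mutant Tam. The share within 20 bp in the mixed-pair regions was therefore below that in the regions missing only from WT ICI and in those of all 4 lists, with intervals that did not meet, and above that in the regions missing only from AF-2 mutant Tam (59.7%, 57.2 to 62.1). In genome coordinates neither list lay mostly to one side. Coordinates carry no orientation of the bound sequence, so a shift relative to that sequence could not be seen. The WT Tam midpoint had the higher coordinate in 1741 of the 3432 regions with unequal midpoints (50.7%, 49.0 to 52.4).

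**Figure D1:**
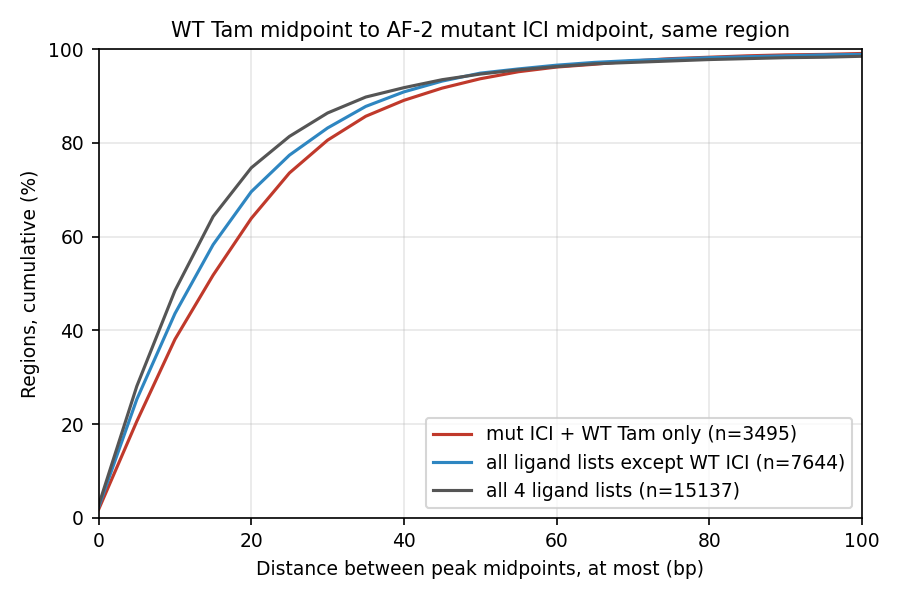
Cumulative share of regions (%) by the distance in bp between the WT Tam and the AF-2 mutant ICI midpoint, for the mixed-pair regions, the regions missing only from WT ICI and the regions of all 4 ligand lists. Within 20 bp the curves stand at 63.9%, 69.6% and 74.7%, and by 50 bp they have nearly met.

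Few mixed-pair regions were ERα sites under vehicle. The vehicle lists were not used to choose the regions. An AF-2 mutant Veh peak was held by 51 of the 3495 regions (1.46%, 1.09 to 1.91), against 5.87% of all 63548 regions with a ligand peak. A WT Veh peak was held by 38 (1.09%, 0.771 to 1.49), against 5.21% of all regions with a ligand peak. Either vehicle list was present in 76 mixed-pair regions (2.17%, 1.72 to 2.71), against 9.51% of all. Among the 15 combinations of ligand lists this was the lowest share, though that of regions held by WT Tam alone, at 2.30% (1.95 to 2.70), could not be told apart from it. Both vehicle lists were present in 13 mixed-pair regions (0.372%, 0.198 to 0.635), against 1.57% of all. The other 3419 held WT Tam and AF-2 mutant ICI peaks and nothing else.

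The combinations that differ from the mixed pair by 1 list give the measure of this. Regions that held AF-2 mutant Tam besides, and so lacked only WT ICI, had an AF-2 mutant Veh peak in 8.23% (7.62 to 8.87) and a WT Veh peak in 5.01% (4.53 to 5.52). Regions that held WT ICI besides, and so lacked only AF-2 mutant Tam, had an AF-2 mutant Veh peak in 1.62% (1.06 to 2.37) and a WT Veh peak in 6.69% (5.51 to 8.02). With AF-2 mutant Tam added, both vehicle shares were thus higher than in the mixed pair. With WT ICI added, the wild-type share alone was clearly higher.

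The regions held by only 1 list of the pair can be set beside these. Regions of AF-2 mutant ICI alone had an AF-2 mutant Veh peak in 3.06% (2.70 to 3.45), above the mixed pair, and a WT Veh peak in 0.629% (0.471 to 0.822), with an interval that met that of the mixed pair. Regions of WT Tam alone had them in 1.27% (1.01 to 1.58) and 1.32% (1.05 to 1.63), both indistinguishable from the mixed pair. In the opposite pair of 481 regions, 8.52% (6.19 to 11.4) held an AF-2 mutant Veh peak and 3.12% (1.76 to 5.09) a WT Veh peak, both above the mixed pair.

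Mutant vehicle peaks went with the AF-2 mutant Tam list over all combinations. The 8 combinations that hold AF-2 mutant Tam had an AF-2 mutant Veh peak in 6.70% to 10.9% of their regions. The 7 combinations without it, the mixed pair among them, had one in 1.27% to 4.75%. The mixed-pair regions, at 1.46%, thus lay near the lowest of these 7. Regions of both ICI lists and neither Tam list were the highest of them, at 4.75% (3.51 to 6.27). WT Veh shares did not part in this way by the WT Tam list. They ran from 1.09%, in the mixed pair, to 14.2% in the 8 combinations with WT Tam. In the 7 without it they ran from 0.629% to 3.12%. How strongly the receptor bound at these sites is not known from the lists, and its part in the vehicle shares was not tested.

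**Figure D2:**
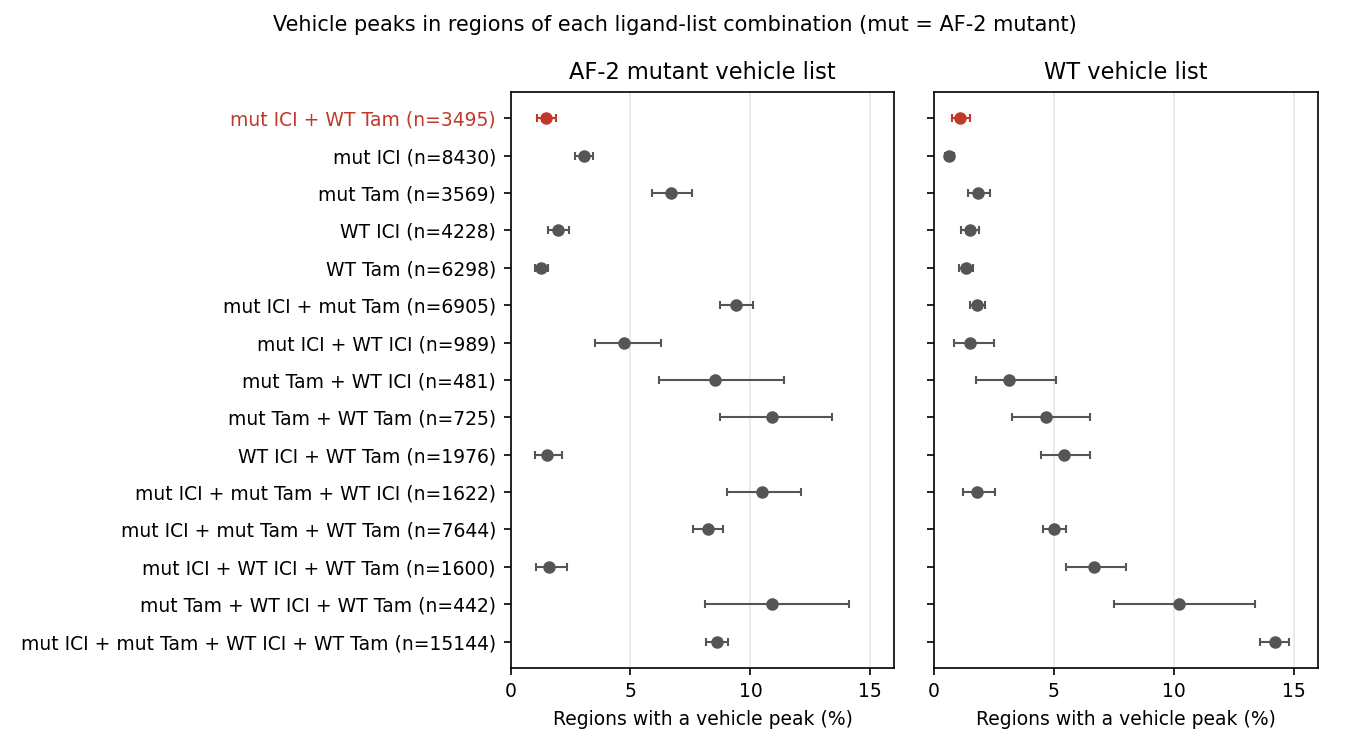
Share of regions (%) holding an AF-2 mutant vehicle peak (left) or a WT vehicle peak (right) for each of the 15 combinations of ligand lists, with the mixed pair in red at the top; bars are exact 95% intervals for counting error. The mixed pair sits at 1.46% and 1.09%, near the left end of both panels, while the 8 combinations with AF-2 mutant Tam start at 6.70% on the left panel.

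Outside the region itself, mutant vehicle peaks were less common close to mixed-pair regions than close to all regions with a ligand peak, and wild-type vehicle peaks could not be told apart. An AF-2 mutant Veh peak lay outside the region but within 1000 bp of it in 1.26% of mixed-pair regions (0.916 to 1.69), against 2.71% (2.59 to 2.84) of all. Within 10 kb these shares were 7.50% of mixed-pair regions (6.64 to 8.42) and 9.95% of all (9.72 to 10.2). A WT Veh peak lay within 1000 bp in 1.37% of mixed-pair regions (1.01 to 1.82), against 1.72% (1.62 to 1.82) of all, and within 10 kb in 6.61% (5.81 to 7.48), against 7.15% (6.95 to 7.35) of all. Within 50 kb, the mean number of AF-2 mutant Veh peaks was 0.368 around mixed-pair regions. It was lower around WT Tam alone, at 0.286, and higher around AF-2 mutant ICI alone, at 0.452.

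The 13 regions with both vehicle lists are also those with the most peaks, 4 each, and the first 3 of them along the genome lie on chromosome 2. At chr2:53050918-53051190 the AF-2 mutant ICI peak ran from 53050930 to 53051129 and the AF-2 mutant Veh peak from 53050942 to 53051141. The WT Tam peak there ran from 53050918 to 53051117 and the WT Veh peak from 53050991 to 53051190. This site stood alone, with the nearest other region 83454 bp away and the nearest AF-2 mutant Tam peak 97979 bp away. A second site, at chr2:94113362-94113609, held the same 4 lists with an offset of 22 bp between WT Tam and AF-2 mutant ICI. There, an AF-2 mutant Tam peak lay 255 bp and a WT ICI peak 268 bp outside the region. The site at chr2:4802632-4802965 had an AF-2 mutant Tam peak 597 bp away and its nearest WT ICI peak 51566 bp away. Of the mixed-pair regions with an AF-2 mutant Veh peak, 25.5% (14.3 to 39.6) also held WT Veh, close to the 26.8% (25.4 to 28.2) over all regions with a ligand peak.

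The missing lists had peaks within 10 kb of about as many mixed-pair regions as not, and seldom within 1000 bp. At least one of them lay within 10 kb of 1840 regions (52.6%, 51.0 to 54.3), and the nearer one was a median of 8783 bp (8288 to 9541) away. The nearest AF-2 mutant Tam peak lay a median of 12241 bp (11481 to 13055) from the edge of the region, and the nearest WT ICI peak 14904 bp (13847 to 15927). An AF-2 mutant Tam peak lay within 200 bp of 88 regions (2.52%, 2.02 to 3.09) and within 1000 bp of 410 (11.7%, 10.7 to 12.8). A WT ICI peak lay within 200 bp of 108 regions (3.09%, 2.54 to 3.72) and within 1000 bp of 394 (11.3%, 10.2 to 12.4). At least one of these lists came within 1000 bp in 527 regions (15.1%, 13.9 to 16.3), and both did in 277 (7.93%, 7.05 to 8.87). The remaining 2968 had neither.

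These distances can be set beside the regions held by only one list of the pair, which lack the same lists. At least one missing list lay within 10 kb of 56.1% (55.0 to 57.1) of regions of AF-2 mutant ICI alone. For WT Tam alone this share was 47.3% (46.0 to 48.5). Within 1000 bp these shares were 18.4% (17.6 to 19.2) and 12.9% (12.1 to 13.7). The mixed pair, at 52.6% and 15.1%, lay between them at both distances. For AF-2 mutant ICI alone, an AF-2 mutant Tam peak lay within 1000 bp in 15.4% (14.7 to 16.2) and a WT ICI peak in 10.7%. For WT Tam alone the shares were 8.86% (8.17 to 9.59) and 9.69% (8.97 to 10.4). The mixed pair lay between them for AF-2 mutant Tam. For WT ICI its interval met that of AF-2 mutant ICI alone and, narrowly, that of WT Tam alone.

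Within the first 1000 bp outside the region, peaks of the missing lists were most frequent between 100 and 299 bp. In bins of 100 bp, AF-2 mutant Tam peaks lay 200 to 299 bp from the edge of 78 mixed-pair regions and 100 to 199 bp from 64, against 24 in the bin next to the edge and 21 to 44 in each bin from 300 to 999 bp. WT ICI peaks had their highest bins at 100 to 199 bp, with 65 regions, and at 200 to 299 bp, with 61. AF-2 mutant ICI alone had the same high bins, with 3.25% and 2.91% of its regions for AF-2 mutant Tam at 100 to 199 and 200 to 299 bp. WT Tam alone had 1.08% and 1.02% there.

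**Figure D3:**
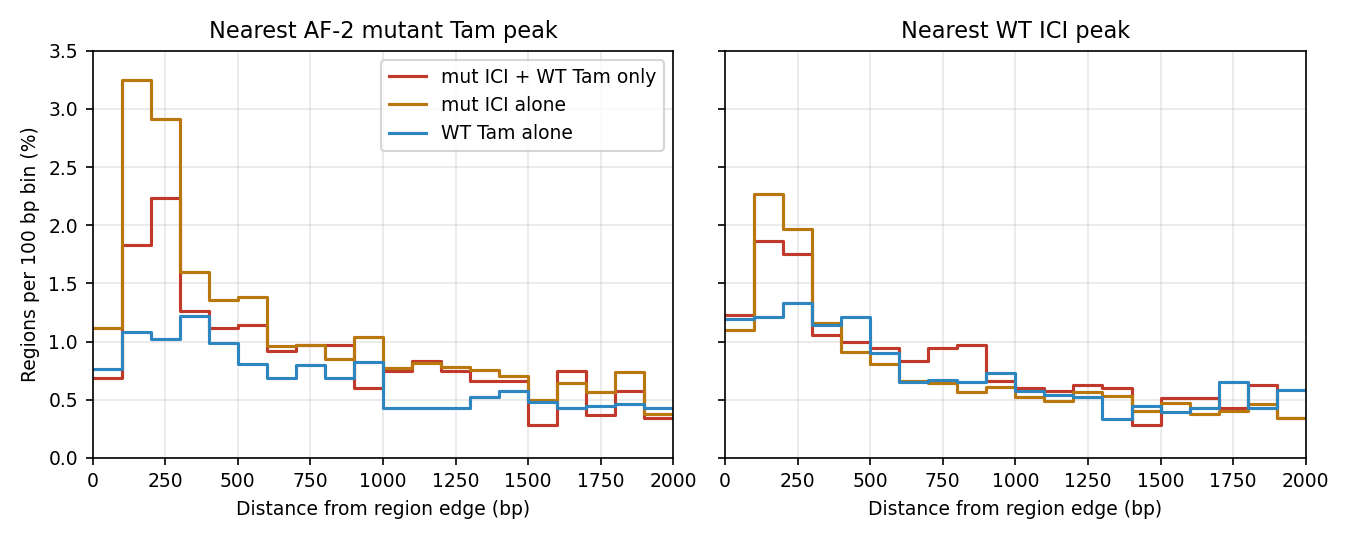
Share of regions (%) per 100 bp bin of distance from the region's edge to the nearest AF-2 mutant Tam peak (left) and the nearest WT ICI peak (right), for the mixed-pair regions and for regions of AF-2 mutant ICI alone or WT Tam alone. The mixed pair is highest at 2.23% between 200 and 299 bp on the left and at 1.86% between 100 and 199 bp on the right.

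Few regions lay at the edge of the rule. A WT ICI peak lay 10 bp or less outside 4 mixed-pair regions, and an AF-2 mutant Tam peak likewise outside 4. On the other side, 2 of the 1600 regions missing only from AF-2 mutant Tam, and 3 of the 7644 missing only from WT ICI, were kept out of the set by an overlap of 10 bp or less. The closest case was chr7:108056939-108057148, where a region of WT ICI and AF-2 mutant Tam, the opposite pair, began directly at the edge, with the WT ICI peak 0 bp and the AF-2 mutant Tam peak 16 bp away. At chr19:56243355-56243580 a WT ICI peak lay 2 bp outside, and at chr5:130089647-130089869 an AF-2 mutant Tam peak lay 4 bp outside. Regions of the opposite pair lay within 200 bp of 14 mixed-pair regions (0.401%, 0.219 to 0.671). For WT Tam alone this share was 0.0953% (0.0350 to 0.207), and for AF-2 mutant ICI alone 0.166% (0.0908 to 0.278).

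At the other extreme, some mixed-pair regions lay in long stretches without the missing lists. The site at chr1:26738967-26739175 was 1999770 bp from the nearest AF-2 mutant Tam peak and 2260717 bp from the nearest WT ICI peak, with its midpoints 9 bp apart. Its nearest neighbour, 51195 bp away, was held by WT Tam alone. The sites at chr7:60507943-60508157, chr4:112652324-112652532 and chrX:15175647-15175882 had no ERα region of any list within 1097582, 1024378 and 1019397 bp. Their WT Tam and AF-2 mutant ICI midpoints were 15, 9 and 36 bp apart.

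Mixed-pair regions had a more distant nearest neighbour, at the median, than ERα regions as a whole. The nearest other region was a median of 5630 bp away (5323 to 6008), against 4609 bp (4531 to 4694) over all regions. No other region lay within 10 kb of 36.4% (34.8 to 38.0), against 31.4% (31.0 to 31.7) over all. Regions missing only from WT ICI were closer together, with a median of 3666 bp (3452 to 3890), and so were those of all 4 lists, with 3806 bp (3637 to 3951). Regions of WT Tam alone were more isolated, at 7394 bp (7060 to 7787). Those of AF-2 mutant ICI alone lay at 5150.5 bp (4960 to 5344), with an interval that met that of the mixed pair. Regions missing only from AF-2 mutant Tam, at 5693.5 bp (5245 to 6271), could not be told apart from the mixed pair. Within 50 kb, the median number of other regions was 5 both around mixed-pair regions and around all regions.

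Their share fell with the number of regions around. Among regions with no other region within 50 kb of the midpoint, 6.12% (5.38 to 6.93) were mixed-pair regions. The share was 5.98% (5.56 to 6.42) with 1 to 2 others, 5.54% (5.22 to 5.87) with 3 to 5, 5.08% (4.79 to 5.39) with 6 to 10, and 4.53% (4.11 to 4.97) with 11 or more. WT Tam alone ran the same way over a wider range, from 16.5% with no other region to 6.43% with 11 or more. AF-2 mutant ICI alone fell as well, from 14.5% (13.4 to 15.6) to 11.5% (10.9 to 12.2). Regions missing only from WT ICI ran the other way, at 9.73% with no other region and 14.9% with 11 or more. So did regions of all 4 ligand lists, at 15.7% and 29.3%. Regions share neighbours, so these shares are not independent of one another.

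**Figure D4:**
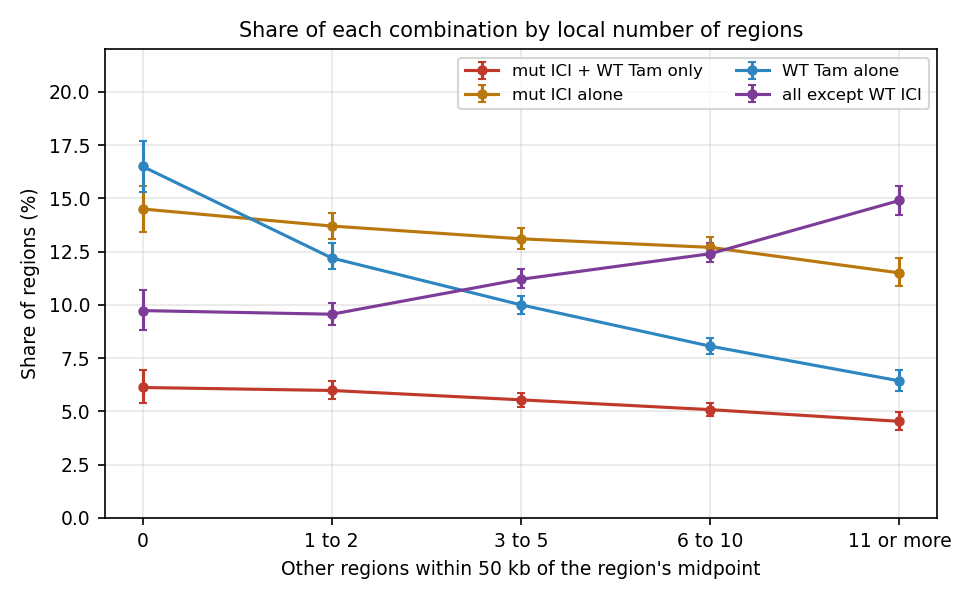
Share of regions (%) that belong to each combination, by the number of other regions within 50 kb; bars are exact 95% intervals for counting error. The mixed pair lies lowest and falls slightly, from 6.12% to 4.53%, while the regions missing only from WT ICI reach 14.9% at the right.

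The neighbours of mixed-pair regions were of the common kinds. The nearest other region was held by all 4 ligand lists in 24.8% (23.4 to 26.2), against 23.6% (23.2 to 23.9) when counted from every region, which was not distinguishable. It was another mixed-pair region in 6.38% (5.59 to 7.24), against 5.14% (4.97 to 5.31) counted from every region. This share was not particular to the mixed pair. It was 7.90% (5.65 to 10.7) counted from the opposite pair. From regions of both wild-type ligand lists and no mutant ligand list it was 6.68% (5.62 to 7.87). From regions missing only from WT ICI it was 4.92% (4.44 to 5.43). For mixed-pair regions, the nearest region was held by both mutant ligand lists and no wild-type ligand list in 7.98%, against 10.8% counted from every region. Within 50 kb, 5.86% of the regions around a mixed-pair region were themselves mixed-pair regions, against 5.03% around all regions. Around regions of both wild-type ligand lists and no mutant ligand list this share was 5.98%. Around those missing only from WT ICI it was 4.86%. The nearest other mixed-pair region was a median of 130607.5 bp away (122927 to 138516), midpoint to midpoint, and one lay within 10 kb in 7.27% (6.43 to 8.18).

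Peaks of every list were found around them. Within 50 kb, and leaving out the region's own peaks, there were on average 4.01 AF-2 mutant ICI, 3.22 AF-2 mutant Tam and 0.368 AF-2 mutant Veh peaks. For the wild type these means were 2.38 ICI, 3.38 Tam and 0.311 Veh peaks. Over all regions the means were 4.35, 3.55 and 0.434 in the mutant and 2.45, 3.43 and 0.311 in the wild type, in the same order. The lists absent from the mixed-pair regions were thus called in their surroundings at levels near those around all regions.

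Runs of neighbouring mixed-pair regions were short. Mixed-pair regions were 5.36% of all regions, a share at which most neighbours are of other kinds. The runs were not tested against that share. Read along the chromosomes, 3069 stood between regions of other kinds, 198 pairs stood next to each other, and 10 runs held 3. The first of these runs were chr3:145473352-145497200, chr7:137821080-137835876 and chr7:141360370-141383132, spanning 23849, 14797 and 22763 bp. In windows of 100 kb laid end to end, 16125 windows held a region of any kind and 2996 held a mixed-pair region. Of the latter, 2569 held 1, 367 held 2, 51 held 3, 6 held 4 and 3 held 5.

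The windows with 5 had unlike surroundings. On chromosome 7 at 141300001 to 141400000 the mutant had 9 ICI, 5 Tam and 1 Veh peaks, and the wild type had 1 ICI, 10 Tam and 0 Veh peaks. All 5 mixed-pair regions there lay between 141315933 and 141383132, and the only WT ICI peak was in a region of all 4 ligand lists outside that stretch. This window had WT Tam and AF-2 mutant ICI at nearly equal numbers and almost no WT ICI. Each of its 5 mixed-pair regions brings 1 peak of both lists and no WT ICI peak by the rule. These numbers therefore follow in part from choosing the window by its mixed-pair regions. On chromosome 8 at 124700001 to 124800000 the mutant had 10 ICI, 7 Tam and 0 Veh peaks, and the wild type 5 ICI, 10 Tam and 0 Veh peaks. One mixed-pair region there, at 124717816 to 124718044, had a region of the opposite pair beside it at 124718082 to 124718291. On chromosome 18 at 60700001 to 60800000 the mutant had 15 ICI, 8 Tam and 1 Veh peaks, and the wild type 5 ICI, 12 Tam and 1 Veh peaks. That window also held 5 regions of all 4 ligand lists, and its vehicle peaks lay in those and in none of the mixed-pair regions.

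**Figure D5:**
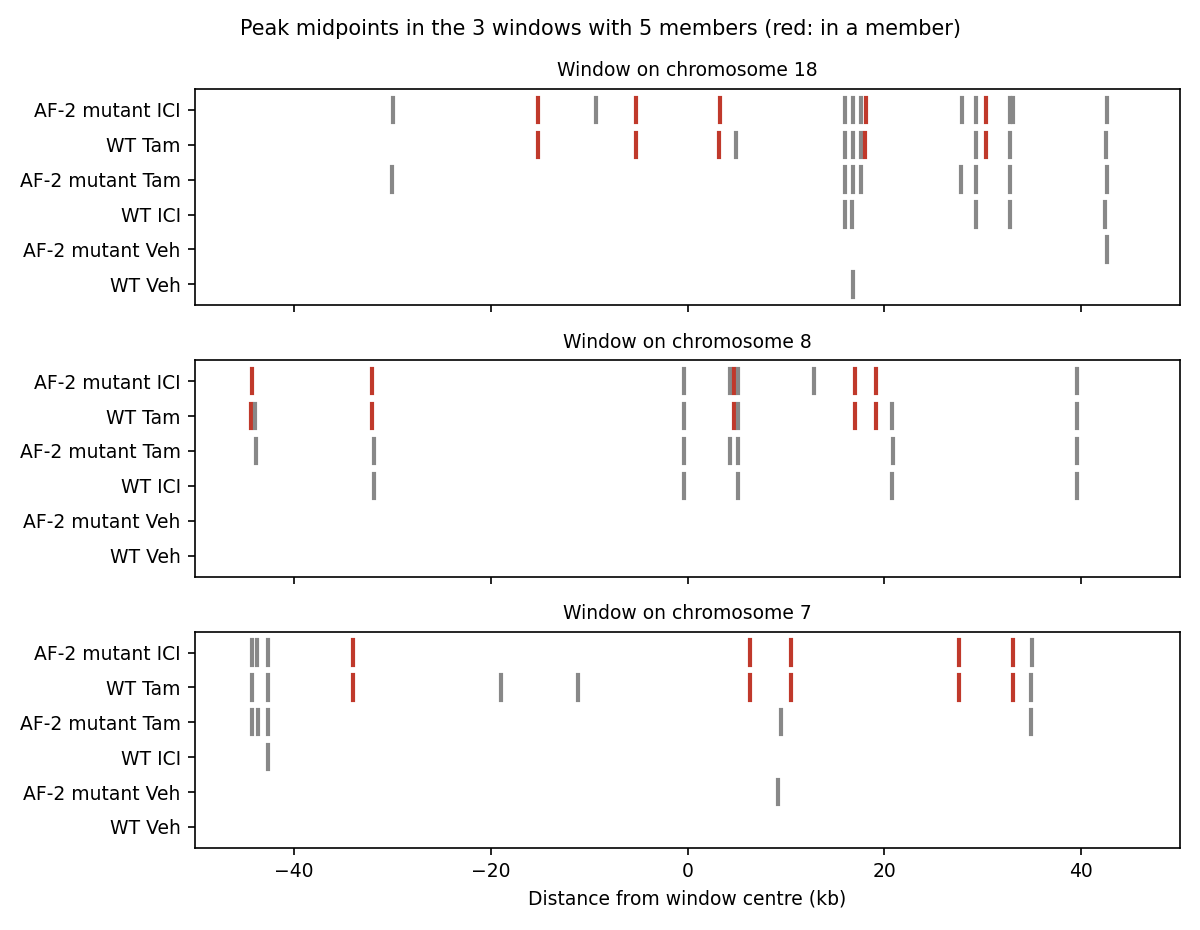
Peak midpoints of the 6 lists in the 3 windows of 100 kb with 5 mixed-pair regions, by distance from the window's centre in kb; each bar is 1 peak, red where it lies in a mixed-pair region. Red bars appear as aligned pairs in the AF-2 mutant ICI and WT Tam rows, and the chromosome 7 window has a single WT ICI peak.

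Mixed-pair regions were found on every chromosome from 1 to 19 and on X at similar shares. They were 5.91% of the regions on chromosome 10 (5.13 to 6.76), the highest, and 4.39% on chromosome X (3.38 to 5.61), the lowest, with intervals that met. Chromosome 15 had 4.48% (3.74 to 5.31), chromosome 14 4.55% (3.80 to 5.41) and chromosome 12 5.88% (5.04 to 6.81). By number, chromosome 1 held 249 and chromosome 2 held 248, against 61 on X. A further 3 lay on sequences not placed within a chromosome.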

How the data were processed

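ERα ChIP-seq peak lists of 6 libraries were analysed, 1 library per group. The submitters' processing notes name build mm9 and the tools HOMER 4.10.3, Bowtie2 2.1.0, bedtools 2.24.0, Picard and SAMtools. The role of each tool, the peak threshold and any use of an input library were not given in the sources used here. The authors deposited positions only, with no score, so peaks could not be ranked, and the threshold and depth of each library set what counts as absent. Coordinates count from 1.

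Peaks were joined and measured with Python 3.11.15, pandas 2.3.3 and numpy 2.4.6, with intervals from scipy 1.17.1 and plots from matplotlib 3.10.9. Region and member counts differed by 0 from bedtools 2.31.1. On simulated lists of 5000 regions, the number of members found differed by 0 from the 335 known. The totals alone were compared, and the simulated regions lay well apart. Distances run from the region's edge, except that counts within 50 kb and the distance to the nearest other mixed-pair region use midpoints. Regions were named by rule: the densest windows and longest runs, those with most peaks or both vehicle lists, and the extremes of distance, 3 each. The region set, measures and rules were chosen with earlier results of these data known. Positions relative to genes and sequence motifs were planned, but needed an mm9 genome or annotation, not used here; the tables at hand were of GRCm38, so genes and sequences are not given. Alternatives were another overlap, joining of nearby peaks, a distance from the absent lists, fewer chromosomes, ligand lists only, unmerged peaks and shifted windows.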

Additional observations from a re-analysis of the deposited data

Results flagged for a closer look

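The ligands stood in opposite orders in the genotypes around the mixed-pair regions, which is why this is listed. Within 50 kb, leaving out the region's own peaks, the ratio of ICI to Tam peaks was 1.25 in the AF-2 mutant and 0.704 in the wild type. Around all regions these ratios were 1.22 and 0.714. With 1 library behind each list this difference could not be tested, and the whole lists have the same order.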

How the results depend on the processing

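The number of mixed-pair regions lay between 2968 and 3552 when peaks had to overlap by 100 bp (3552), when peaks within 500 bp were joined (3187), when no WT ICI or AF-2 mutant Tam peak was allowed within 1000 bp (2968), on chromosomes 1 to 19 and X (3492), from ligand lists only (3497) and from unmerged WT Tam peaks (3513). Under the first 4 of these the AF-2 mutant Veh share lay between 1.31% and 1.55%, the WT Veh share between 0.842% and 1.18%, and the median offset stayed at 15.0 bp. An overlap of 100 bp limits the offset further by construction. The distance to the nearest region, 5630 bp, became 7280 bp with peaks within 500 bp joined and 7720 bp without nearby absent lists, and the share with no region within 10 kb became 41.7% and 42.9%; both settings remove close neighbours by construction. The second also sets the share near an absent list to 0. Chosen after seeing the data, leaving the WT ICI list out of the rule gave 5095 regions and leaving out AF-2 mutant Tam gave 11139, which by construction adds the regions that list had removed; 3419 remained without those holding a vehicle peak. Shifting the windows by 50 kb left the most in a window at 5. No paired analysis was possible because each group had 1 library. The comparisons by gene position and motif were not run. Depth per library is unknown, so weak binding below the threshold cannot be seen.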
